A study of Homo sapiens with 6 samples.

Results

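PTPN11 encodes SHP2, a tyrosine phosphatase that couples receptor tyrosine kinases to the RAS-ERK cascade. The genes described here are PTPN11 and 9 genes of the proteins around it, chosen by symbol: the docking proteins GAB1, GAB2 and FRS2, the adaptors GRB2 and SHC1, the RAS exchange factors SOS1 and SOS2, and the negative regulators CBL and RASAL2. A gene was measured where a probe set carried its symbol alone, and the probe set with the highest mean was kept. This gave 9 of the 10 genes, out of 18377 genes tested, and FRS2 was not analysed here because no probe set carried its symbol in the annotation used.

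The cells were MCF10A-HER2/3, a derivative of the human mammary epithelial line MCF10A, which forms hollow spheres called acini in three-dimensional culture. The groups carried an inducible SHP2 miR1, an inducible SHP2 miR2 or an inducible CTRL miR, each on a lentiviral vector, with 2 arrays per group. All 3 groups were cultured for 15 days with doxycycline, renewed every 2 days, so the controls received the inducer too, and all had EGF, insulin, cholera toxin, hydrocortisone and horse serum in the medium. Expression was read on Affymetrix HuGene-1_0-st-v1 arrays from bulk RNA. Nothing in the labels says that replicates were separate cultures, that the transduced cells were clones, or how HER2 and HER3 were introduced, so the p-values reflect the scatter between arrays alone, and that scatter may be technical.

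In a cell with an active receptor, docking proteins of the GAB and FRS families become phosphorylated on tyrosine and recruit SHP2 through its SH2 domains. GRB2, alone or through SHC1, brings the SOS proteins to the membrane, where they load RAS with GTP. CBL, a ubiquitin ligase, marks activated receptors for removal, and GTPase-activating proteins such as RASAL2 switch RAS off. SHP2 is known as a positive regulator of this route downstream of HER2 and HER3.

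Array medians lay between 5.23 and 5.35 on the log2 scale, and replicates correlated across genes at r = 0.985 to 0.986. All 8 measured epithelial markers of 12 listed, among them the keratins KRT5 and KRT18 and the cadherin CDH1, had group means above 4.76, the value under which 40% of probe sets lay. On that list the basal keratin KRT14 rose by 1.10 (adjusted p = 0.00440 in limma) and the laminin chain LAMB3 fell by 1.07 (adjusted p = 0.00314), averaged over both SHP2 miRs. The leukocyte list had array means of 5.58 to 5.64 with SHP2 miR1, 5.39 to 5.55 with SHP2 miR2 and 5.38 to 5.38 in CTRL miR. These were higher with SHP2 miR1, while the lower SHP2 miR2 array, at 5.388, barely exceeded the higher CTRL miR array, at 5.383. The adipocyte list had 4.52 to 4.61, 4.35 to 4.37 and 4.37 to 4.49 in the same order of groups, the fibroblast list 5.16 to 5.18, 5.07 to 5.18 and 5.23 to 5.26, and the endothelial list 5.02 to 5.11, 5.08 to 5.12 and 5.05 to 5.18. The cultures were of MCF10A-HER2/3 cells, and the part of other cell types in these values was not tested. Of 6 measured leukocyte markers, 4 had a mean above 4.76 with SHP2 miR1, 3 with SHP2 miR2 and 2 in CTRL miR. With SHP2 miR1, CD14 rose by 1.08 (adjusted p = 0.0366 in limma) and CD68 fell by 0.71 (adjusted p = 0.0272), while PTPRC, which marks leukocytes in general, had means of 3.32 with SHP2 miR1, 3.41 with SHP2 miR2 and 3.25 in CTRL miR. A probe set's value depends on its own probes, so levels are compared between groups for a gene and never between genes.

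PTPN11, the target of both SHP2 miRs, was measured first. Its values were 6.04 and 5.71 with SHP2 miR1, 6.90 and 7.28 with SHP2 miR2, and 7.96 and 8.44 in CTRL miR (log2). The groups did not overlap: both SHP2 miR1 arrays were lowest, both SHP2 miR2 arrays lay between, and both CTRL miR arrays were highest. Averaged over both SHP2 miRs, PTPN11 fell by 1.72 on the log2 scale (SE 0.19, 95% interval -2.14 to -1.29, 3.28-fold lower, adjusted p = 0.00184 in limma with Benjamini-Hochberg adjustment over all genes). Only 0.0653% of genes had a lower difference.

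With SHP2 miR1, PTPN11 fell by 2.32 (SE 0.22, 95% interval -2.81 to -1.84, 5.003-fold, adjusted p = 0.000548 in limma). For SHP2 miR2 alone PTPN11 had -1.11 (SE 0.22, 95% interval -1.59 to -0.62), a 2.16-fold lower value that missed the threshold of 0.05 after adjustment (adjusted p = 0.0813 in limma). It passed when the limma fit allowed the variance to follow the mean (adjusted p = 0.00400) or left out dim genes (adjusted p = 0.0495). PTPN11 was 1.21 higher with SHP2 miR2 than with SHP2 miR1 (95% interval 0.73 to 1.70, adjusted p = 0.0645 in limma), and this direct difference passed under the same fits and with arrays centred on their medians, at adjusted p-values of 0.00248, 0.0455 and 0.0484. In bulk RNA, fewer cells holding the transcript and less transcript per cell cannot be told apart. The RefSeq gene table lists 5 pseudogenes named after PTPN11, whose transcripts may bind the same probes.

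**Figure D1:**
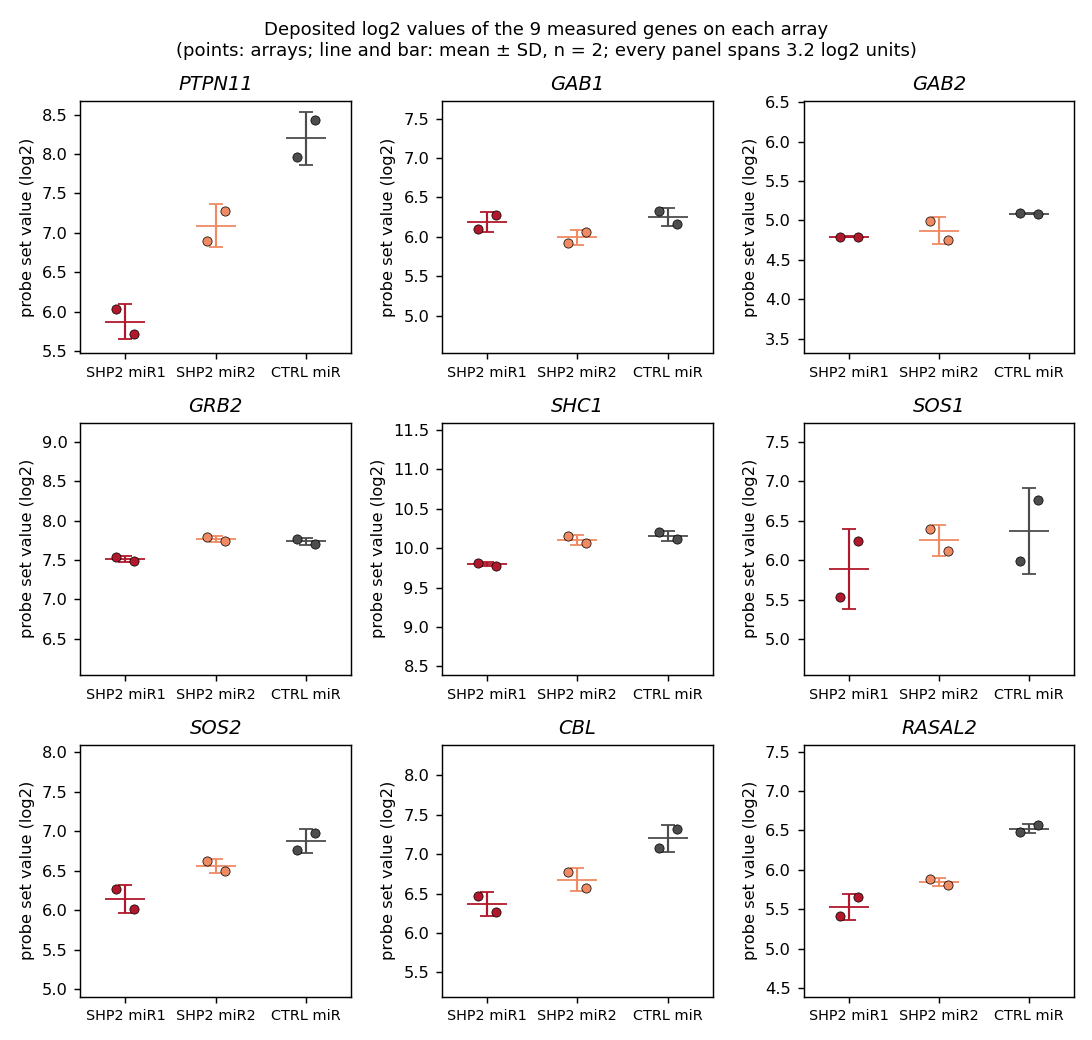
Deposited log2 probe set values of the 9 measured genes on each array, with points for the arrays and a line and bar for the mean ± SD (n = 2). PTPN11 separates the 3 groups, from 5.71 with SHP2 miR1 to 8.44 in CTRL miR, while GAB1, GRB2, SOS1 and SHC1 have SHP2 miR arrays at or above a CTRL miR array.

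The docking proteins GAB1 and GAB2, which carry the phosphotyrosine sites that SHP2 binds, showed small differences. GAB2 had 4.80 and 4.79 with SHP2 miR1, 4.995 and 4.75 with SHP2 miR2, and 5.09 and 5.08 in CTRL miR (log2). All 4 SHP2 miR arrays were below both CTRL miR arrays, yet the average difference was -0.25 (SE 0.13, 95% interval -0.55 to 0.04, adjusted p = 0.308 in limma) and did not pass. Its difference was -0.29 with SHP2 miR1 and -0.21 with SHP2 miR2, and the mean of GAB2 lies close to the 4.76 used to leave out dim genes.

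GAB1 had 2 probe sets, and they did not give the same picture. The kept probe set, annotated to a cDNA clone alone, had 6.10 and 6.28 with SHP2 miR1, 5.92 and 6.06 with SHP2 miR2, and 6.33 and 6.17 in CTRL miR. The other, annotated to the RefSeq transcripts, had 5.95 and 5.87 with SHP2 miR1, 6.37 and 6.28 with SHP2 miR2, and 6.12 and 6.25 in CTRL miR. SHP2 miR2 thus gave the lowest values on the first and the highest on the second. Their means over the 6 arrays, 6.143 and 6.142, differed by 0.00143, and the rule of keeping the higher mean rested on that gap.

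None of the GAB1 differences passed on either probe set. On the clone probe set, GAB1 differed from CTRL miR by -0.06 with SHP2 miR1 and -0.25 with SHP2 miR2 (adjusted p = 0.830 and 0.591 in limma). On the RefSeq probe set the differences were -0.28 and 0.14 (adjusted p = 0.250 and 0.780 in a limma fit of every probe set). SHP2 miR2 minus SHP2 miR1 was -0.20 (95% interval -0.55 to 0.16) on the first and 0.41 (95% interval 0.08 to 0.75, adjusted p = 0.215 in limma) on the second. The average difference was negative on both probe sets, at -0.16 and -0.07, as was that of SHP2 miR1, while the other 2 comparisons had opposite signs on them.

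**Figure D2:**
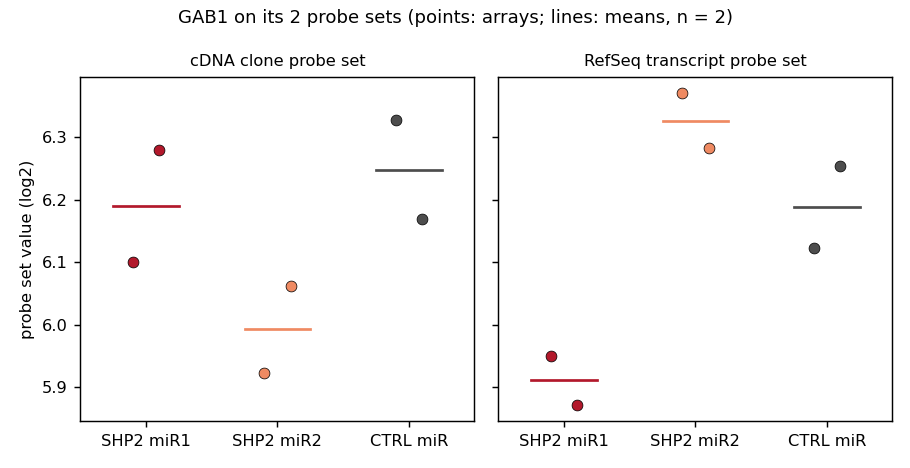
Log2 values of GAB1 on its 2 probe sets, with points for arrays and lines for group means (n = 2). The SHP2 miR2 mean is 5.99 on the probe set of the cDNA clone, below the CTRL miR mean of 6.25, and 6.33 on that of the RefSeq transcripts, above the CTRL miR mean of 6.19.

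The adaptors GRB2 and SHC1, which link phosphorylated receptors to SOS, were among the least variable genes. Their residual SDs within groups were 0.0393 and 0.0551, against a median of 0.166 over all genes. GRB2 had 7.54 and 7.49 with SHP2 miR1, 7.80 and 7.74 with SHP2 miR2, and 7.77 and 7.71 in CTRL miR (log2). Both SHP2 miR1 arrays were below the rest, whereas the SHP2 miR2 arrays overlapped CTRL miR. The average difference of GRB2 was -0.10 (95% interval -0.38 to 0.18, adjusted p = 0.696 in limma), while the separate differences were -0.22 (SHP2 miR1) and 0.03 (SHP2 miR2).

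SHC1 had 9.82 and 9.78 with SHP2 miR1, 10.15 and 10.06 with SHP2 miR2, and 10.20 and 10.11 in CTRL miR (log2). Here too the SHP2 miR1 arrays were lowest and the SHP2 miR2 arrays overlapped CTRL miR. The difference with SHP2 miR1 was -0.36 (SE 0.14, 95% interval -0.69 to -0.03, adjusted p = 0.145 in limma), and it passed only with a mean-variance trend (adjusted p = 0.00573). With SHP2 miR2 it was -0.05 (95% interval -0.38 to 0.27). The RefSeq table lists 2 pseudogenes named after SHC1.

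The exchange factors SOS1 and SOS2, paralogs that load RAS with GTP, differed in how far their replicates agreed. SOS2 had 6.26 and 6.02 with SHP2 miR1, 6.62 and 6.50 with SHP2 miR2, and 6.77 and 6.98 in CTRL miR (log2). The groups of SOS2 did not overlap and had the same order as those of PTPN11. With SHP2 miR1, SOS2 fell by 0.73 (SE 0.16, 95% interval -1.10 to -0.36, 1.66-fold, adjusted p = 0.0291 in limma). The average difference of -0.52 (SE 0.14, 95% interval -0.84 to -0.20, adjusted p = 0.0780) did not pass, nor did the -0.31 of SHP2 miR2 (adjusted p = 0.533). The average passed with a mean-variance trend (adjusted p = 0.0355) or without dim genes (adjusted p = 0.0473). The SHP2 miR1 call was lost without either SHP2 miR1 array (adjusted p = 0.0705 without replicate 1 and 0.148 without replicate 2) or either CTRL miR array (0.05003 without replicate 1 and 0.194 without replicate 2).

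SOS1 had 5.53 and 6.24 with SHP2 miR1, 6.40 and 6.12 with SHP2 miR2, and 5.99 and 6.76 in CTRL miR (log2). The replicates of CTRL miR were 0.77 apart and those of SHP2 miR1 differed by a similar amount, so the groups overlapped. The residual SD of SOS1 was 0.444, and 1.65% of genes had a larger one. Its average difference was -0.30 (SE 0.25, 95% interval -0.87 to 0.27, adjusted p = 0.530 in limma) and became 0.08 without CTRL miR replicate 2. A difference in SOS1 as large as the one in SOS2 was therefore within the error.

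The negative regulators gave the 2 calls other than PTPN11 in the average comparison. CBL had 6.48 and 6.26 with SHP2 miR1, 6.78 and 6.57 with SHP2 miR2, and 7.08 and 7.32 in CTRL miR (log2). All 4 SHP2 miR arrays were below both CTRL miR arrays. CBL fell by 0.68 on average (SE 0.14, 95% interval -1.004 to -0.35, 1.599-fold, adjusted p = 0.0353 in limma) and by 0.83 with SHP2 miR1 (SE 0.17, adjusted p = 0.0199). For SHP2 miR2 alone CBL had -0.52 (95% interval -0.90 to -0.15, adjusted p = 0.281). The average call was lost with any 1 array left out, at adjusted p-values of 0.0538 to 0.311, and narrowly under quantile (0.0531) or cyclic loess normalization (0.0507). The SHP2 miR1 call was lost without SHP2 miR1 replicate 1 (0.0579) or 2 (0.107) and without CTRL miR replicate 2 (0.159).

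RASAL2 had 5.41 and 5.65 with SHP2 miR1, 5.88 and 5.81 with SHP2 miR2, and 6.48 and 6.56 in CTRL miR (log2). The gap between the highest SHP2 miR array and the lowest CTRL miR array was wider than the distance between replicates in any of the 3 groups. RASAL2 fell by 0.83 on average (SE 0.13, 95% interval -1.13 to -0.53, 1.78-fold, adjusted p = 0.0108 in limma) and by 0.99 with SHP2 miR1 (SE 0.15, 95% interval -1.34 to -0.64, adjusted p = 0.00702). For SHP2 miR2 alone RASAL2 had -0.67 (95% interval -1.02 to -0.33, adjusted p = 0.127). The average call was lost without CTRL miR replicate 1 (0.0658) or 2 (0.136), and the SHP2 miR1 call without SHP2 miR1 replicate 1 (0.0569) or CTRL miR replicate 2 (0.0732).

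**Figure D3:**
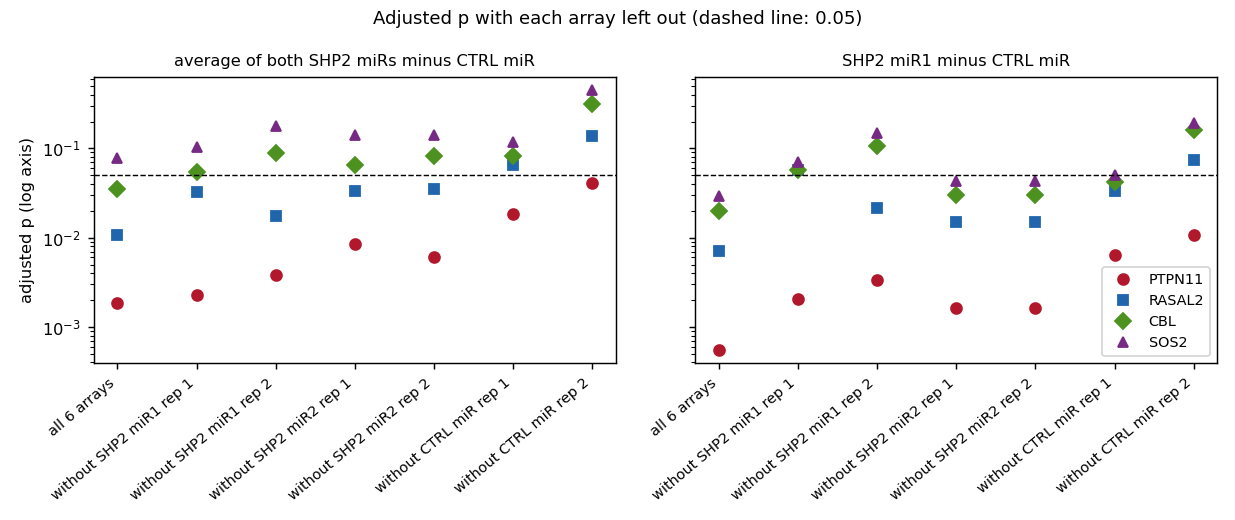
Adjusted p from limma (log axis) of PTPN11, RASAL2, CBL and SOS2 with all 6 arrays and with each array left out, for the average comparison (left) and SHP2 miR1 minus CTRL miR (right). PTPN11 stays under the dashed line of 0.05 throughout, with a highest average value of 0.0414, while CBL crosses it in the average comparison whichever array is left out.

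RASAL2 has 2 annotated transcription starts in RefSeq (GRCh38.p14), both on the plus strand of chromosome 1, and the single probe set does not tell them apart. The 100 bases before each start are shown because they are the upstream sequences of the member with the strongest call beside PTPN11. Capitals mark matches to the GC box letters GGGCGG on either strand.
RASAL2 start 1, chr1:178094004-178094103: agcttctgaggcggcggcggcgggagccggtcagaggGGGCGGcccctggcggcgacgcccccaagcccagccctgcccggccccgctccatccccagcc
RASAL2 start 2, chr1:178341351-178341450: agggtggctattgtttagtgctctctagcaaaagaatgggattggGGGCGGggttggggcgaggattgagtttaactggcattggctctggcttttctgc
The first stretch is 81% G or C and the second 52%, against a median of 60% over the 35116 listed promoters. Each stretch shown holds 1 GC box match. The whole promoter windows around the starts hold 3 and 1, and 45% of listed promoter windows hold at least 1. The ETS letters CCGGAAG, the AP-1 letters TGANTCA and the E-box letters CACGTG were searched on both strands and had 0 matches in either RASAL2 window, while 10.3%, 7.71% and 7.26% of listed promoters hold them.

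Across the 9 measured genes, 3 passed the threshold in the average comparison, all lower: PTPN11, CBL and RASAL2. Among all genes, 4.2% passed, with 2.67% lower and 1.53% higher. The shares of all genes include dim genes, while the 9 all had means above 4.76. With dim genes left out, 1079 genes passed in the average comparison, out of PTPN11 and 13046 others, and 4 of the 9 did. Of the 9, 4 had an unadjusted p under 0.05, against 20.9% of all genes. With SHP2 miR1 the count was 4 of 9, all lower, with SOS2 added, where 8.6% of all genes passed, 5.94% lower and 2.66% higher (80.3% of the calls were lower with arrays centred on their medians, 69.1% as deposited), and 5 had an unadjusted p under 0.05 against 28.1% of all genes. With SHP2 miR2 it was 0 of 9, where 0.37% of all genes passed, and 3 of the 9 had an unadjusted p under 0.05 against 11% of all genes. With SHP2 miR2 against SHP2 miR1 it was 0 of 9, where 0.19% of all genes passed, and 2 of the 9 had an unadjusted p under 0.05 against 17.7% of all genes. The mean-variance trend called PTPN11 in both comparisons. Both SHP2 miR comparisons use the same CTRL miR arrays, so they are not independent. PTPN11, the target of both SHP2 miRs, is in each count of the 9 above other than those of 0, so these are not counts of its partners alone. The partners called were CBL and RASAL2 on average, and CBL, RASAL2 and SOS2 with SHP2 miR1.

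The average difference was below 0 for all 9 genes, with a median of -0.30, against 0.02 over all genes. Without PTPN11 the median of the other 8 was -0.28. It was -0.43 with SHP2 miR1, where all genes had a median of 0.04, and -0.23 with SHP2 miR2, where all genes had -0.01. All 4 SHP2 miR arrays lay below both CTRL miR arrays for 5 genes (PTPN11, GAB2, SOS2, CBL and RASAL2), which 13.6% of all genes did. For SHP2 miR1 alone, both arrays lay below both CTRL miR arrays in 7 genes, against 29% of all genes, and for SHP2 miR2 alone in 6 genes, against 20.8%. GAB1 counts among the 6 but not the 7 on its clone probe set alone. On its RefSeq probe set both SHP2 miR2 arrays lay above both CTRL miR arrays, and both SHP2 miR1 arrays below them. In 7 of the 9, all but GAB1 and GRB2, the group means were ordered as for PTPN11, with SHP2 miR1 lowest and CTRL miR highest, an order that 25.7% of all genes had. PTPN11 is among these 7 by definition. As the target of both SHP2 miRs it is also in each of the counts of arrays below CTRL miR, so those counts are not of its partners alone. These counts describe the list and were not tested, and without CTRL miR replicate 1 or 2 the average call was left with 1 gene, PTPN11.

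**Figure D4:**
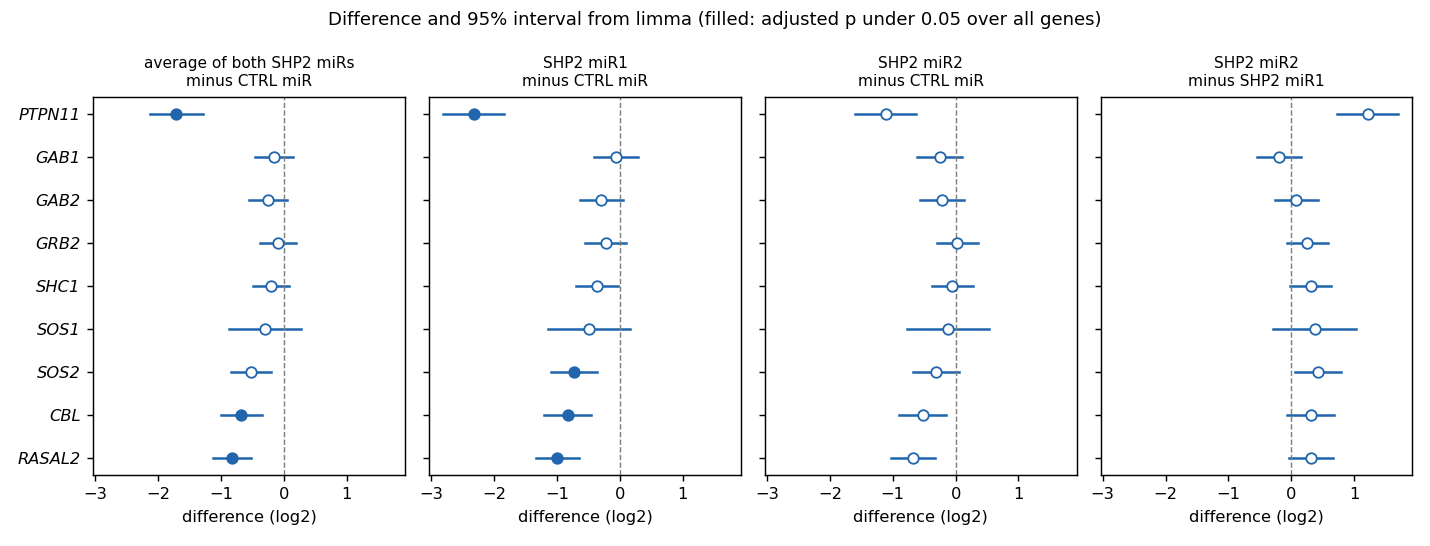
Difference (log2) and 95% interval from limma for the 9 measured genes in each comparison, with filled points where the adjusted p over all genes is under 0.05. In the average comparison PTPN11 lies at -1.72, RASAL2 at -0.83 and CBL at -0.68, and no point is filled for SHP2 miR2 against either other group.

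SHP2 miR2 minus SHP2 miR1 was positive for 8 of the 9 genes, GAB1 on its clone probe set being the other. Both SHP2 miR2 arrays lay above both SHP2 miR1 arrays in 6 genes, PTPN11 among them, against 26.4% of all genes. After PTPN11, the largest was SOS2 at 0.42 (95% interval 0.05 to 0.79, adjusted p = 0.236 in limma). CBL had 0.31 (95% interval -0.07 to 0.68), RASAL2 0.32 (-0.03 to 0.66) and SHC1 0.31 (-0.02 to 0.64), none of which passed. The intervals leave room for differences of up to 0.68 in CBL and 0.66 in RASAL2 between the SHP2 miRs.

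**Figure D5:**
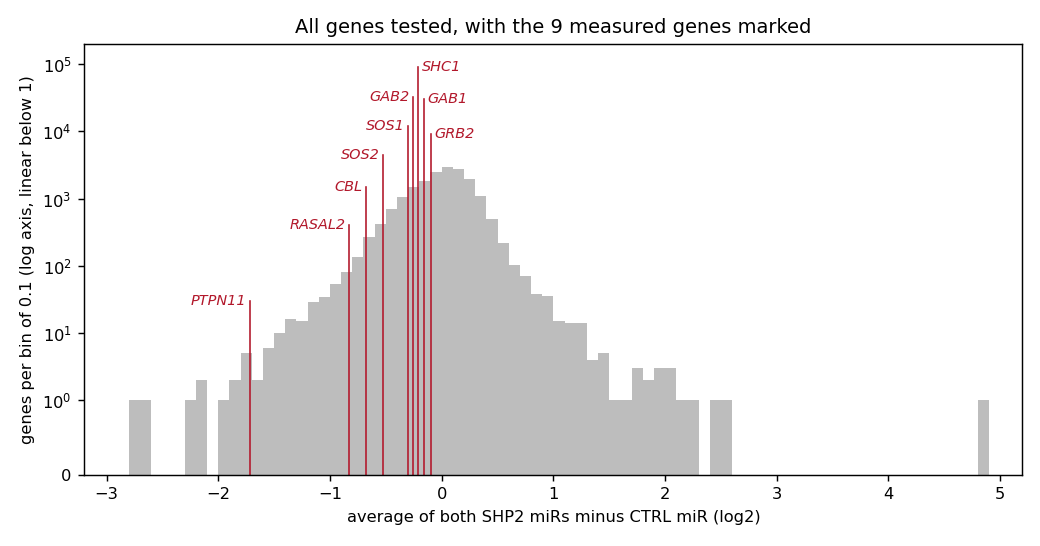
Number of genes (log axis) in bins of 0.1 of the average difference of both SHP2 miRs minus CTRL miR (log2), with red lines at the 9 measured genes; the heights of the lines carry no value. PTPN11 at -1.72 is in the far lower tail, RASAL2 and CBL are in the lower shoulder with 1.25% and 2.41% of genes below them, and the other 6 are nearer to 0.

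Most of these genes are long, and long genes as a class lay slightly lower in the SHP2 miR arrays. Genes that span at least 80 kb had a median average difference of -0.057, against 0.016 over all genes with a span. The members without PTPN11, among them SHC1 with a span under 80 kb, had a median of -0.28. In the RefSeq table of GRCh38.p14, RASAL2 spans 384.7 kb, GAB2 202.5 kb and CBL 101.8 kb, SHC1 spans 12.08 kb, and 8 of the 9 span at least 80 kb, against a median of 24.5 kb. Of 3868 genes that span at least 80 kb, 5.53% passed as lower in the average comparison, against 2.66% of all 18349 genes with a span. The part of gene length in the members' differences was not tested, and the fit that follows was chosen after seeing the data. With the trend over gene span removed, PTPN11 had -1.61 (adjusted p = 0.002001 in limma) and RASAL2 -0.82 (adjusted p = 0.0108), which passed, and CBL had -0.57 (adjusted p = 0.0647), which did not. In the same fit SOS2 with SHP2 miR1 had -0.58 (adjusted p = 0.0597), and the average of GRB2 turned to 0.01.

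Of 15 measured of 16 other docking proteins, 2 fell, 1 rose and 12 did not pass in the average comparison, with a median of 0.17. Of all genes, 2.67% fell and 1.53% rose in that comparison. GAB3, the GAB paralog, averaged 5.51 with SHP2 miR1, 6.04 with SHP2 miR2 and 6.74 in CTRL miR (log2, n = 2 each), and fell by 0.96 (SE 0.14, 1.95-fold, adjusted p = 0.00573 in limma). IRS2, which docks signalling proteins to the insulin receptor, fell by 0.95 (SE 0.17, 1.94-fold, adjusted p = 0.0184). PECAM1, an adhesion receptor whose cytoplasmic tail recruits SHP2, rose by 0.60 (SE 0.14, adjusted p = 0.0422), but it had 0.27 when its probe sets were averaged and lost its call with any array left out. PECAM1 is also on the endothelial marker list. GAB3 missed the threshold without CTRL miR replicate 2 (adjusted p = 0.0983), and IRS2 without CTRL miR replicate 1 (0.114) or 2 (0.112).

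Among 16 measured of 20 other SH2 and SH3 adaptors, 1 rose and 0 fell, against 1.53% and 2.67% of all genes, with a median of -0.09. This was VAV3, a signalling protein with SH2 and SH3 domains, at 0.97 (SE 0.17, adjusted p = 0.0170 in limma), with dim means of 4.54 with SHP2 miR1, 4.19 with SHP2 miR2 and 3.40 in CTRL miR, and it missed the threshold without CTRL miR replicate 1 (0.103) or 2 (0.149). None of 10 other RAS exchange factors passed in limma, while 3 had an unadjusted p under 0.05, against 20.9% of all genes, the smallest being those of RGL1 with 0.40 (adjusted p = 0.139) and RASGRF1 with -0.44 (adjusted p = 0.183). Of 5 measured of 9 other RAS GTPase-activating proteins, 0 passed in limma in the average comparison. Of the 5, 2 had an unadjusted p under 0.05, against 20.9% of all genes. They were RASA2 at -0.72 (adjusted p = 0.0594 in limma) and NF1, neurofibromin, at -0.34 (adjusted p = 0.201). With SHP2 miR1 alone RASA2 fell by 0.96 (adjusted p = 0.0259).

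Of 10 measured CBL family members and associates, 1 fell and 0 rose, against 2.67% and 1.53% of all genes. CD2AP, a scaffold that binds CBL, fell by 0.66 (SE 0.15, adjusted p = 0.0456 in limma) and lost its call whichever array was removed, with adjusted p-values reaching 0.370. The CBL paralog CBLB had -0.27 (adjusted p = 0.253) and CBLC, the epithelial paralog, -0.04 (adjusted p = 0.917). Among 12 measured genes of the SHP2 paralog and the SRC arm, 0 passed in limma in the average comparison and 4 had an unadjusted p under 0.05, against 20.9% of all genes. STAT3, a transcription factor that SHP2 can dephosphorylate, had 0.51 (adjusted p = 0.0633), PTK2, the focal adhesion kinase, -0.43 (adjusted p = 0.108), and PTPN6, the SHP2 paralog SHP1, 0.19 (adjusted p = 0.436). STAT3 rose by 0.56 with SHP2 miR1 alone (adjusted p = 0.0499). Its average passed with a mean-variance trend, without dim genes, under quantile normalization and with the span trend removed, with 0.0492 as the highest of these adjusted p-values. In the 6 fits that each dropped 1 array STAT3 did not pass, and its adjusted p reached 0.310.

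Of 15 measured receptors that recruit SHP2 or its docking proteins, 1 fell and 1 rose on average, against 2.67% and 1.53% of all genes. With SHP2 miR1, 3 fell and 1 rose, against 5.94% and 2.66% of all genes. Those that fell were ERBB3, ERBB2 at -0.64 (adjusted p = 0.0310 in limma) and MET at -0.71 (adjusted p = 0.0237). With SHP2 miR2, 1 fell, ERBB3 (adjusted p = 0.0143), against 0.18% of all genes. ERBB3, the kinase-impaired partner of HER2, had 8.09 and 8.05 with SHP2 miR1, 8.48 and 8.42 with SHP2 miR2, and 9.67 and 9.54 in CTRL miR. On average ERBB3 fell by 1.35 (SE 0.13, adjusted p = 0.000959 in limma). Genes for HER2 and this partner were introduced into the cells. The part of the introduced genes, as opposed to the cells' own, in the ERBB2 and ERBB3 values was not tested. FGFR3, a fibroblast growth factor receptor, rose by 0.84 (SE 0.13, adjusted p = 0.0106) and missed the threshold without CTRL miR replicate 1 (0.0765) or 2 (0.110). In the RAS to ERK core, 10 of 15 listed genes were measured. With SHP2 miR1 3 of them fell, against 5.94% of all genes, and with SHP2 miR2 0 did, against 0.18%. On average 1 fell, against 2.67%, and 0 rose. The median average difference of the 10 was 0.06, and only 3 of them were below 0. The gene that fell on average was MAP2K1, the kinase MEK1, at -0.76 (SE 0.14, adjusted p = 0.0180 in limma). MAP2K1 missed the threshold without SHP2 miR1 replicate 2 (0.0521), SHP2 miR2 replicate 2 (0.0513), CTRL miR replicate 1 (0.0957) or 2 (0.158).

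Downstream, the ERK-induced feedback list, 16 genes, had 10 that fell and none that rose, and its median was -0.70, where 2.67% of all genes fell. With SHP2 miR1, 12 of the 16 fell, against 5.94% of all genes, and with SHP2 miR2 1 did, SPRY4, against 0.18% of all genes. SPRY4, which inhibits RAS-ERK signalling, fell by 1.84 (SE 0.13, adjusted p = 0.000203 in limma), the ERK phosphatase genes DUSP4 and DUSP6 by 1.21 and 1.06, and IER3 by 0.88. Without CTRL miR replicate 2, DUSP4, DUSP6 and IER3 reached 0.0558, 0.126 and 0.109, and IER3 also reached 0.0706 without CTRL miR replicate 1. SPRY4 was 1.09 higher with SHP2 miR2 than with SHP2 miR1, a difference that passed (adjusted p = 0.0310), where that of PTPN11 itself did not.

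Among the 13046 other genes with a mean above 4.76, the 5 whose profiles lay nearest to that of PTPN11 were found by the root mean square difference of their deviations from their own mean over the 6 arrays. They were SPINK6, a kallikrein inhibitor of the skin, at 0.136, then BCAP29, a membrane protein of the endoplasmic reticulum, at 0.189, TMEM156 at 0.190, SPRY4 at 0.212 and the chemokine CCL20 at 0.221. SPINK6 had 4.50 and 4.06 with SHP2 miR1, 5.58 and 5.52 with SHP2 miR2, and 6.39 and 6.94 in CTRL miR (log2). All 5 had their lowest values on both SHP2 miR1 arrays and their highest on both CTRL miR arrays. That order follows from choosing them by likeness to PTPN11 on the same arrays. The nearest of the other members was RASAL2 at 0.603, and 2.96% of the compared genes lay nearer to PTPN11. These are descriptions over 6 arrays in 3 groups, and likeness was not tested.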

How the data were processed

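Each array has 1 deposited column of probe set values on a log2 scale, inferred from the deposited range of 1.59 to 13.85. Per the submitters' processing notes, R 2.10 and oligo 1.8 were used. The sources used here do not give the background correction, normalization or build. Of 28869 probe sets, 19310 had 1 symbol in the platform annotation, 1752 several and 7807 none; 18377 genes remained. A 3-group linear model over the 6 arrays was run in limma 3.58.1 (R 4.3.3), with 3 residual and 6.1 prior degrees of freedom. P-values were two-sided and Benjamini-Hochberg adjusted over all genes, with a threshold of 0.05. A simulation of the average comparison over 18377 genes changed 100 genes by 1 log2 unit and 100 by 0.5, with spreads drawn from the limma prior. The changes of 1 were recovered for 70% of genes and those of 0.5 for 1%, and 3 unchanged genes were called. With 771 calls in the data, the adjustment was less strict there than in the simulation, so these rates do not give the power of the comparison. The number of arrays limits precision.

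Members, gene lists, tests and alternatives were chosen with earlier results of these data known. All members were named. From each of 9 other pathway lists, up to 4 passing genes by smallest p were named, or the 2 of smallest p; the 5 genes nearest to PTPN11 were also named; CBLB, CBLC and PTPN6 were added after their values were seen, as paralogs. Promoter sequences are RefSeq's (GRCh38.p14), listed for 7 of 10 members.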

Additional observations from a re-analysis of the deposited data

How the results depend on the processing

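PTPN11 passed in the average comparison under all alternatives run, with -1.75 to -1.61 (adjusted p up to 0.00533) and, leaving out 1 array each, -1.95 to -1.48 (adjusted p up to 0.0414). In the average comparison the count of members past the threshold was 3. It was 4 with a mean-variance trend or without dim genes, and 1 with a minimum log2 difference of 1. Quantile normalization, cyclic loess normalization and removal of the span trend each gave 2. With SHP2 miR1 the count of members was 4, with 5 under the mean-variance trend, 3 with the span trend removed and 1 with the minimum difference. It was 0 with SHP2 miR2 and in SHP2 miR2 minus SHP2 miR1, 0 to 0 in both with an array left out, and 1 in both, PTPN11, with a mean-variance trend or without dim genes; the second was also 1 with centring on array medians. Over all genes the average comparison gave 771 calls, 1793 with the trend, 192 with the minimum difference and 108 to 512 with an array left out. With SHP2 miR1 it was 1581, with 2786, 435 and 269 to 1308. With SHP2 miR2 it was 68, with 367 under the trend, 154 without dim genes, 37 under the replicate block and 0 to 60 with an array left out. For SHP2 miR2 minus SHP2 miR1 it was 35, with 446, 95 and 12 under the same fits, 69 with centring, 55 with array weights, 12 with only the groups compared and 0 to 15 with an array left out.

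Signs turned for some differences that were never called. Averaging probe sets gave GAB1 0.11 for SHP2 miR2 minus SHP2 miR1, and its RefSeq probe set 0.41 there and 0.14 for SHP2 miR2. With the span trend removed, an alternative chosen after seeing the data as was the RefSeq probe set, GRB2 had 0.0067 on average and GAB1 0.0807 with SHP2 miR1. With an array left out, GAB1 with SHP2 miR1 ranged from -0.15 to 0.0305, GAB2 for SHP2 miR2 minus SHP2 miR1 from -0.0443 to 0.20, SOS1 with SHP2 miR2 from -0.51 to 0.27, SOS1 on average from -0.69 to 0.0810 and GRB2 with SHP2 miR2 from -0.00094 to 0.0583. The causes were not tested.

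The replicate numbers were not shown to pair the arrays: deviations of same-numbered arrays correlated across genes at 0.0134, 0.0669 and 0.14. Under that block PTPN11 had -1.72 (adjusted p = 0.00533), the members' counts were 3, 4, 0 and 0, and all genes gave 817 calls in the average comparison; RASA2 passed (adjusted p = 0.0391). Lower genes were 80.3% of the SHP2 miR1 calls with centring, against 69.1% as deposited. Background correction and slide could not be varied from these values, and the fit on only the groups compared is the main fit for the average comparison.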
